A study of Bos taurus with 30 samples.

Results

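The genes described here are 5 core histone genes of cattle: H4C3, H4C4, H4C8 and H4C14, which encode histone H4, and H3C6, which encodes histone H3. They were chosen because they are the H4 and H3 genes named among the transcripts that the study listed as more abundant after blood had been stored for 24 h, so that the contrast of jugular blood at 24 h against 1 h, and every value of those libraries, belongs to the choice. They are 5 of the 27607 genes in the count table, and all 5 passed the filter on low values that 14018 genes passed, a CPM (the count of a gene relative to its library's total, scaled to a common total) above 1 in 5 or more of the 30 libraries. H4C4, H4C14 and H3C6 would have passed without the 24 h libraries. H4C3 and H4C8 would not: H4C3 exceeded 1 CPM in the 5 libraries of 24 h and in 1 other library, and H4C8 in 4 libraries of 24 h and 1 other, so both had to be higher at 24 h to be tested at all.

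RNA was sequenced from peripheral white blood cells (PWBCs), the nucleated cells that remain when the buffy coat of blood is freed of red cells, of 5 crossbred beef heifers (Angus x Simmental). The heifers were about 14 months old and all had been through estrus synchronization, and all blood was drawn into EDTA tubes and kept at 4 °C until processing. There were 5 libraries from the coccygeal vein (in the tail) processed at 1 h, 5 from the jugular vein (in the neck) processed at 1 h, 15 of jugular blood processed at 3, 6 or 8 h, and 5 of jugular blood processed at 24 h. Each heifer gave 1 library to each group of 5 and 3 libraries to the group of 15, whose columns carry neither the hour nor the heifer, so that this group is described here as jugular 3-8 h. The subjects of the other libraries are called A to E.

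Histone H4 and histone H3 pair with each other, and together with H2A and H2B they form the protein core around which DNA is wound in a nucleosome. Most genes for these proteins lie in clusters and are copied when a cell replicates its DNA. Their mRNAs usually end in a stem-loop that is bound by the protein SLBP and carry no poly(A) tail, whereas the library kit used in the study captures polyadenylated RNA, so that the values below are levels of histone RNA that passed this capture. Circulating white blood cells mostly do not divide.

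Of the 5 genes, 4 lie in the large histone cluster on chromosome 23 and 1 lies on chromosome 3 (positions in ARS-UCD1.2, all protein coding). H4C8 (ENSBTAG00000049949) spans 31696654 to 31708940 on the + strand, H3C6 (ENSBTAG00000048478) 31737247 to 31737657 on the - strand, H4C4 (ENSBTAG00000040277) 31774497 to 31775288 on the + strand and H4C3 (ENSBTAG00000052609) 31847243 to 31847554 on the - strand. From the first to the last they take up 150.9 kb. H4C14 (ENSBTAG00000032453) spans 20750777 to 20767701 on the - strand of chromosome 3. Each of the 5 symbols matched 1 gene of RefSeq's ARS-UCD2.0 annotation, where H4C14 stands between H3C14 and H3C13 and H3C6 stands between the linker histone gene H1-3 and H4C19.

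The annotated transcripts measure 312 bases for H4C3, 327 for H4C14, 330 for H4C8, 411 for H3C6 and 792 for H4C4. All 5 are multiples of 3, but so are 681 of the 1807 lengths in the annotation used. Whether they are coding lengths was not tested. Read in codons, H4C4 would hold 264, beside 104 for H4C3, 109 for H4C14 and 110 for H4C8. H4C3, H4C4 and H3C6 span no more of the genome than their transcript length, while H4C8 and H4C14 cover 12287 and 16925 bases. The span of H4C8 overlaps a protein-coding gene with no symbol on the opposite strand, and since strand was not used in counting, fragments that fell in exons of both could not be told apart. The model of H4C4 is thus longer than those of the other H4 genes, and a level of H4C4 per length depends on it. H4 gene copies can resemble each other closely, and the counting command, which had no option for multiply mapped fragments, would not have counted fragments that fitted several copies equally.

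Total counts ranged from 12412619 to 19492274 per library, at which 3 counts correspond to 0.154 to 0.242 CPM. No 2 libraries held identical values. All 16 blood cell markers looked up (of T cells, B cells, monocytes, cytotoxic cells, neutrophils, eosinophils and platelets) had counts in every group, and B cells' CD79A was at 504 ± 51.6 CPM in jugular blood at 1 h (SD, n = 5). As the RNA is of mixed cells, fewer cells of a type and less RNA per cell cannot be told apart. Nothing says that the 3 jugular 3-8 h libraries of a heifer are independent of each other, so p-values that use them treat 15 libraries of 5 animals as separate.

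All 5 genes were rare in fresh blood, and H4C3 was the rarest. H4C3 had 5, 2, 2, 2 and 5 counts in jugular blood at 1 h in subjects A to E, which is 0.257, 0.108, 0.130, 0.116 and 0.403 CPM. In coccygeal blood it had 4, 1, 1, 4 and 5 counts, or 0.231, 0.0554, 0.0683, 0.239 and 0.279 CPM. Both groups therefore stood at a few fragments per library. In the 15 jugular 3-8 h libraries H4C3 ran from 0.0521 to 1.60 CPM with a median of 0.413, and at 24 h it had 49, 24, 30, 40 and 58 counts, or 2.98, 1.32, 1.95, 2.52 and 4.58 CPM in subjects A to E. The lowest library of 24 h lay above every library of 1 h of either vein, and 1 of the 15 libraries of 3-8 h lay above it.

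H4C4 was the member with the most counts in fresh blood. It stood at 1.69, 2.71, 2.61, 2.96 and 2.09 CPM in jugular blood at 1 h and at 1.68, 2.66, 2.26, 2.63 and 3.57 CPM in coccygeal blood (subjects A to E). The 15 libraries of 3-8 h covered 1.09 to 4.31 CPM with a median of 2.55, around the same centre as fresh blood. At 24 h H4C4 stood at 3.65, 4.45, 3.51, 6.44 and 6.78 CPM, above every jugular library of 1 h, while the coccygeal library of subject E and part of the 3-8 h libraries reached into this range.

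H4C8 stood at 0.564, 0.433, 0.587, 0.639 and 0.242 CPM in jugular blood at 1 h, or between 3 and 11 counts. In coccygeal blood it stood at 0.405, 0.332, 0.957, 0.418 and 0.781 CPM. The libraries of 3-8 h ran from 0.312 to 1.36 CPM with a median of 0.564, and those of 24 h stood at 1.52, 1.48, 0.974, 2.15 and 2.13 CPM. No library of 1 h reached the lowest one of 24 h, which was that of subject C and stood just above subject C's own coccygeal library.

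H4C14, the member outside the chromosome 23 cluster, had the smallest difference between 24 h and 1 h. It stood at 1.85, 1.35, 0.913, 2.32 and 1.45 CPM in jugular blood at 1 h, at 1.79, 1.44, 1.44, 2.68 and 0.948 CPM in coccygeal blood, and between 1.01 and 2.92 CPM with a median of 2.08 at 3-8 h. At 24 h it stood at 2.92, 3.02, 2.01, 2.46 and 2.29 CPM. The groups overlapped, since subject D had 2.32 CPM at 1 h, above 2 of the libraries of 24 h.

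H3C6 stood at 0.770, 0.650, 1.04, 0.697 and 0.967 CPM in jugular blood at 1 h. In coccygeal blood it spread more widely, at 1.33, 0.332, 0.273, 0.776 and 0.669 CPM, and its 15 libraries of 3-8 h ran from 0.413 to 1.35 CPM with a median of 0.921. At 24 h it stood at 1.95, 1.15, 1.82, 2.71 and 1.81 CPM. All 5 lay above the jugular libraries of 1 h, and the lowest, of subject B, lay below the coccygeal library of subject A.

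**Figure D1:**
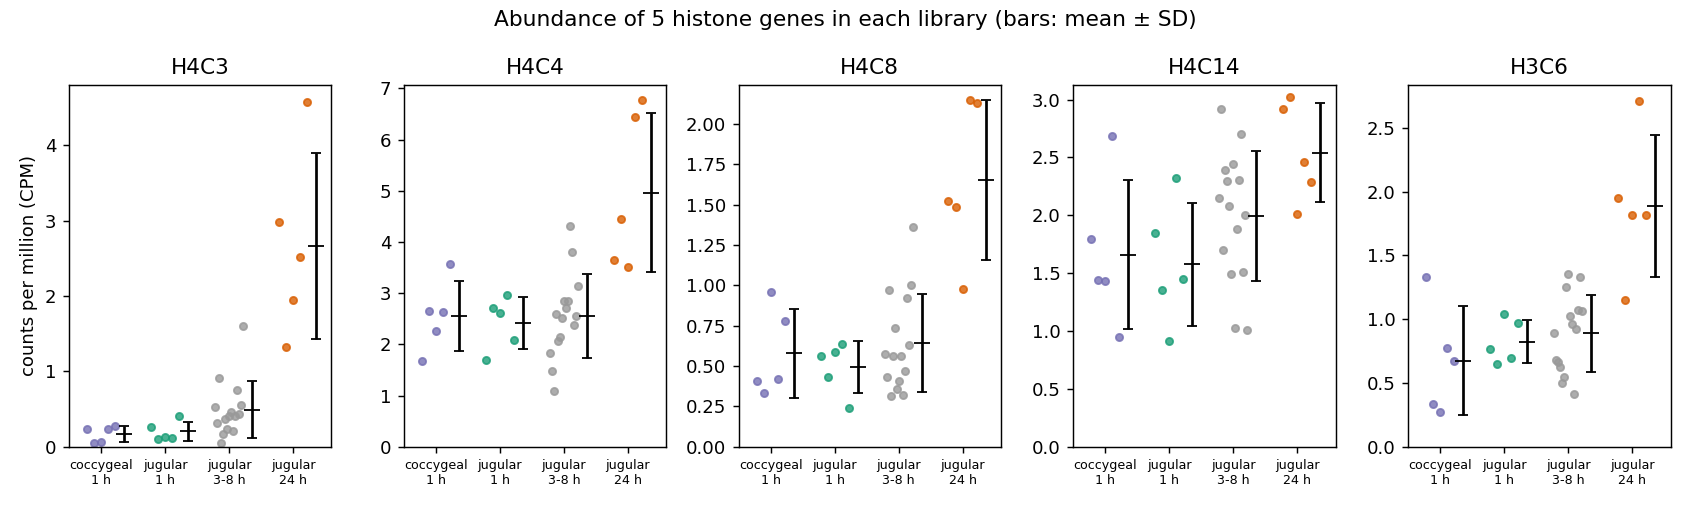
CPM (vertical, linear from 0, a scale of its own in each panel) of H4C3, H4C4, H4C8, H4C14 and H3C6 in each library, by group (horizontal), with the mean and SD as black bars beside the points. In 4 panels the 5 orange points of jugular 24 h lie above the 5 green points of jugular 1 h, and in the panel of H4C14 they overlap.

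The contrast of 24 h against 1 h in jugular blood chose these genes, so its values are given as a description with no test. The log2 fold change from edgeR, with the subject as a block, was 3.69 for H4C3, 1.67 for H4C8, 1.18 for H3C6, 1.00 for H4C4 and 0.71 for H4C14, where the study's threshold was 0.5. DESeq2's 95% interval ran from 2.73 to 4.77 for H4C3 and from 0.07 to 1.38 for H4C14. Because this contrast chose the genes, the intervals do not keep their stated coverage, and that they leave out 0 is no evidence. In edgeR's fit the value of H4C3 was the highest of the 14018 genes tested, whose median was 0.01. It rests on 201 counts against 16, a ratio of pooled CPM of 13.3 with an exact 95% interval of 7.97 to 23.7 that covers counting error only. Of the 5 members, 4 had no overlap between the libraries of 24 h and 1 h, where 1.44% of all genes tested lay higher without overlap and 1.45% were called higher. Here and below a gene is called when 2 tests, the quasi-likelihood test of edgeR and the Wald test of DESeq2, both give it an FDR (p adjusted by Benjamini and Hochberg's method) below 0.05 and its log2 fold change in edgeR exceeds 0.5 in size. Nothing is read from these shares, since the contrast is that of the choice.

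All 5 genes were higher at 24 h than at 1 h in each of the 5 subjects. On the log2 scale of CPM with a prior count of 2, which pulls low values together, the difference in H4C3 was 3.05, 2.66, 3.05, 3.49 and 3.17 in subjects A to E, a mean of 3.09 ± 0.30 (SD, n = 5). This was the most even of the 5 genes relative to its size. On the same scale the other histone genes H2AC21 (3.48) and H1-4 (3.36) had higher means than H4C3. For H4C8 the lowest difference was 0.63, in subject C, and the highest 2.64, in subject E (mean 1.53 ± 0.73). For H4C4 the same subjects had the lowest, 0.41, and the highest, 1.64 (mean 0.98 ± 0.46). For H3C6 subject B had 0.73 and subject D 1.80 (mean 1.06 ± 0.46). H4C14 differed by 0.08 in subject D and by 1.09 in subject B (mean 0.69 ± 0.41). The subject with the largest difference was therefore D for H4C3 and H3C6, E for H4C4 and H4C8, and B for H4C14.

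Taken against coccygeal blood at 1 h, the same libraries of 24 h were higher by 3.22 ± 0.28 for H4C3, by 1.38 ± 0.81 for H4C8, by 1.45 ± 0.65 for H3C6, by 0.91 ± 0.26 for H4C4 and by 0.64 ± 0.51 for H4C14 (log2, SD, n = 5 subjects). H4C8 in subject C differed by 0.02 and H4C14 in subject D by -0.12, the only member and subject in which the 24 h library was the lower. Both sets of differences share the libraries of 24 h.

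**Figure D2:**
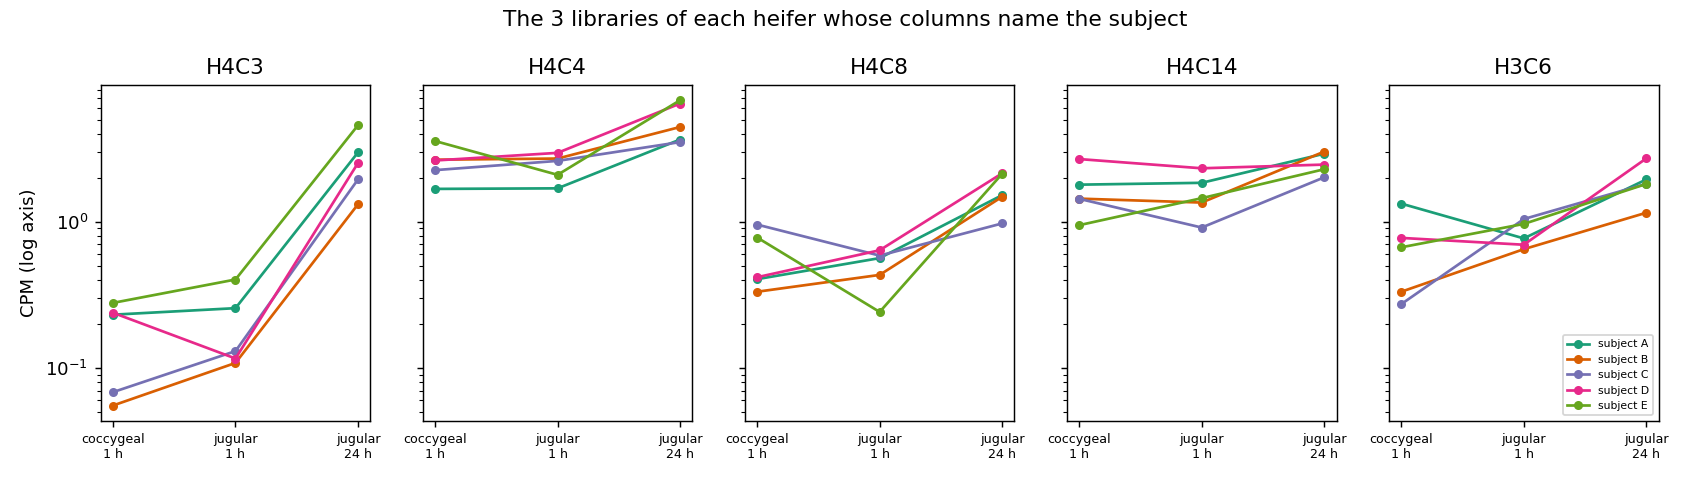
CPM (vertical, log axis shared by the panels) of each member in the coccygeal 1 h, jugular 1 h and jugular 24 h libraries (horizontal), with a line for each of subjects A to E. All lines of H4C3 climb from between 0.108 and 0.403 CPM at jugular 1 h to between 1.32 and 4.58 CPM at 24 h, while the line of subject D in H4C14 is nearly level from 1 h (2.32 CPM) to 24 h (2.46 CPM).

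The veins at 1 h are compared as a description, because the jugular libraries of 1 h belong to the choice. Over the whole table, 0% of the 14018 genes tested were called (edgeR and DESeq2 each gave 0 genes with an FDR under 0.05, and 278 genes had an unadjusted p under 0.05 in edgeR). The log2 fold change of coccygeal against jugular blood in edgeR was -0.19 for H4C3, 0.07 for H4C4, 0.15 for H4C8, 0.07 for H4C14 and -0.30 for H3C6. The DESeq2 intervals show what the depth allows: from -0.50 to 0.64 for H4C4 and from -2.22 to 1.71 for H4C3, so that a difference of several fold between the veins would not have been detectable for H4C3. The sign of H4C4 turned without subject E, that of H4C14 without subject C and that of H4C8 without either of them.

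Storage for 3-8 h was compared with coccygeal blood at 1 h. The study also singled out H4C3 within these hours of storage, and H4C8 passed the filter on low values only with a library of this group, so that both are given as a description with no test. H4C3 was at 0.494 ± 0.375 CPM (SD, n = 15) against 0.175 ± 0.105 CPM (SD, n = 5), a log2 fold change of 1.44 in edgeR (DESeq2 interval 0.29 to 2.69), in counts of 127 against 15. The log2 fold change of H4C8 was 0.16. It was 0.38 for H3C6, 0.26 for H4C14 and -0.00 for H4C4, each with an adjusted p of 1.00 in edgeR's fit across all genes. Of these 3 genes 0 were called, as 0% of all genes were (0 in edgeR, 0 in DESeq2, and 182 genes at an unadjusted p under 0.05 in edgeR). The same heifers gave both groups, but the fit had no subject block, because the heifer of each 3-8 h library is not given. Without a block, variation between heifers can hide a difference. At 24 h against 1 h in jugular blood, 361 genes were called with the block and 30 without it. The median over the 5 members was 0.26, beside 0.01 over all genes tested. Against jugular blood at 1 h, whose libraries belong to the choice, the same 15 libraries were higher by 1.30 for H4C3, 0.33 for H4C14, 0.35 for H4C8, 0.11 for H3C6 and 0.08 for H4C4, as a description. These values share the 3-8 h libraries with those above.

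In 4 of the 5 genes the step from the 3-8 h libraries to 24 h was larger than that from jugular 1 h to 3-8 h. For H4C14 the steps were 0.35 and 0.33 on the log2 scale and could not be ranked. The 3-8 h libraries mix 3, 6 and 8 h, which cannot be told apart here, so that a difference at a single hour was not tested. From 3-8 h to 24 h the log2 fold change was 2.41 for H4C3, 1.35 for H4C8, 1.08 for H3C6, 0.95 for H4C4 and 0.35 for H4C14, given with no test because the 24 h libraries chose the genes. In all 5 genes the libraries of 24 h and 3-8 h overlapped, where 0.0713% of all genes lay higher without overlap and 0.143% were called higher. For H4C14 the DESeq2 interval of this step ran from -0.07 to 0.78.

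Levels were compared between genes as CPM per kilobase of annotated transcript (FPKM). In jugular blood at 1 h the order was H4C14 at 4.82 ± 1.63 FPKM, H4C4 at 3.05 ± 0.645, H3C6 at 2.01 ± 0.418, H4C8 at 1.49 ± 0.484 and H4C3 at 0.650 ± 0.407 (SD, n = 5 each). Each step between neighbours exceeded the SD of both genes, though by little for H4C14 and H4C4 and for H3C6 and H4C8. The SD does not cover an error in the annotated length, and in every group the place of H4C4 depends on its model of 792 bases. By CPM, which takes no length into account, H4C4 (2.41 ± 0.511) stood above H4C14 (1.58 ± 0.533) in these libraries. At 24 h the order was H4C3 at 8.56 ± 3.96, H4C14 at 7.77 ± 1.30, H4C4 at 6.27 ± 1.96, H4C8 at 5.003 ± 1.498 and H3C6 at 4.60 ± 1.35 FPKM. Each step between neighbours was then smaller than the larger of their SDs, and H4C3, in the last place at 1 h, stood in the first. In the 3-8 h libraries H4C14 was at 6.09 ± 1.72, H4C4 at 3.23 ± 1.03, H3C6 at 2.16 ± 0.738, H4C8 at 1.94 ± 0.914 and H4C3 at 1.58 ± 1.203 FPKM (SD, n = 15). The last 3 differed from each other by less than their SDs, so that the order among them is not resolved.

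Within the 4 H4 genes the make-up of the counts differed between groups. H4C3 held 4.57% ± 3.21 of these counts in jugular blood at 1 h and 3.46% ± 2.02 in coccygeal blood, 8.51% ± 5.72 at 3-8 h and 22.1% ± 6.52 at 24 h (SD, n = 5, 5, 15 and 5). The share in single libraries was at most 9.62% in jugular blood at 1 h and at least 12.8% at 24 h. H4C14 held 33.3% ± 8.12 at 1 h in jugular blood and 22.5% ± 6.07 at 24 h, H4C4 51.6% ± 8.99 and 41.7% ± 5.33, and H4C8 10.5% ± 3.19 and 13.8% ± 1.56. Since these shares sum to 100%, a higher share of H4C3 lowers the others, and all 4 genes had more CPM at 24 h. The shares rest on 52 to 104 H4 counts per jugular library at 1 h and 130 to 215 at 24 h.

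**Figure D3:**
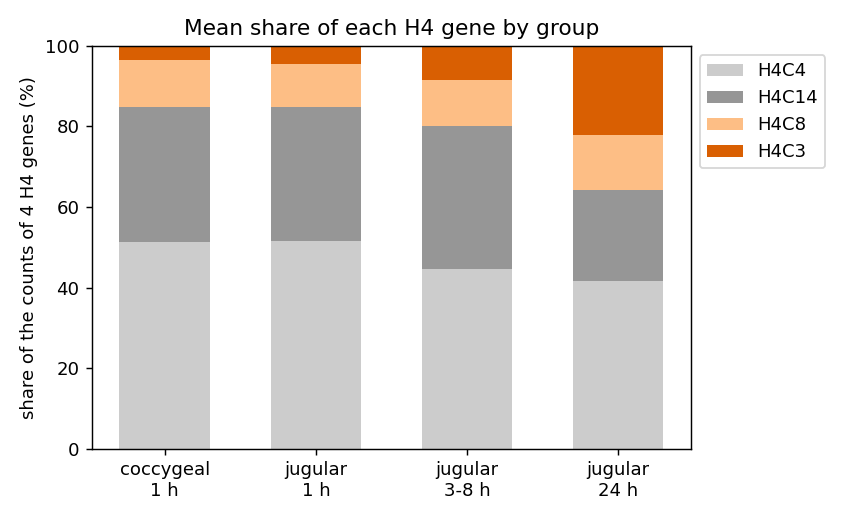
Mean share (vertical, in % from 0 to 100) that H4C4, H4C14, H4C8 and H4C3 held in the summed counts of these 4 genes, by group (horizontal). The dark orange band of H4C3 covers 3.46% in coccygeal 1 h, 4.57% in jugular 1 h, 8.51% in jugular 3-8 h and 22.1% in jugular 24 h.

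The other histone genes looked up were 10 of the linker, H2A and H2B genes that the study names, which were picked by the study on these samples and so are not independent evidence of a direction. H2AC10, which the study also names, could not be matched to an identifier with the tables used here and was not analysed here. The values of the 10 in the comparisons of 24 h are given with no test. At 24 h against 1 h their median log2 fold change was 1.85, beside 0.01 over all genes. H2AC21 was higher by 3.66, H1-4, the linker histone H1.4, by 3.45, H2BC18 by 3.27, H2BC12 by 2.66, H2BC14 by 1.94, H2BC13 by 1.77, H2BU1 by 1.08, H2AC6 by 0.90, H2AW by 0.85 and H2BC4 by 0.59. H2BC18 passed the filter on low counts through 4 libraries of 24 h and 1 other, so that, like H4C3 and H4C8, it had to be higher at 24 h. The members' median of 1.18 lay inside the range of these 10 genes, and H4C14 had a lower value than 9 of them.

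At 3-8 h against coccygeal blood, again as a description, 10 of the 10 other histone genes had a positive value, as did 7705 of the 14018 genes tested, and the median was 0.27, beside 0.26 over the members. For the same 15 libraries against jugular blood at 1 h, 9 of the 10 had a positive value and the median was 0.23. At 24 h against 3-8 h, H2AC21 was higher by 3.04, H1-4 by 2.35, H2BC18 by 2.14, H2BC12 by 2.11, H2BC14 by 1.69, H2BC13 by 1.67, H2BU1 by 0.87, H2AC6 by 0.80, H2AW by 0.72 and H2BC4 by 0.58.

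**Figure D4:**
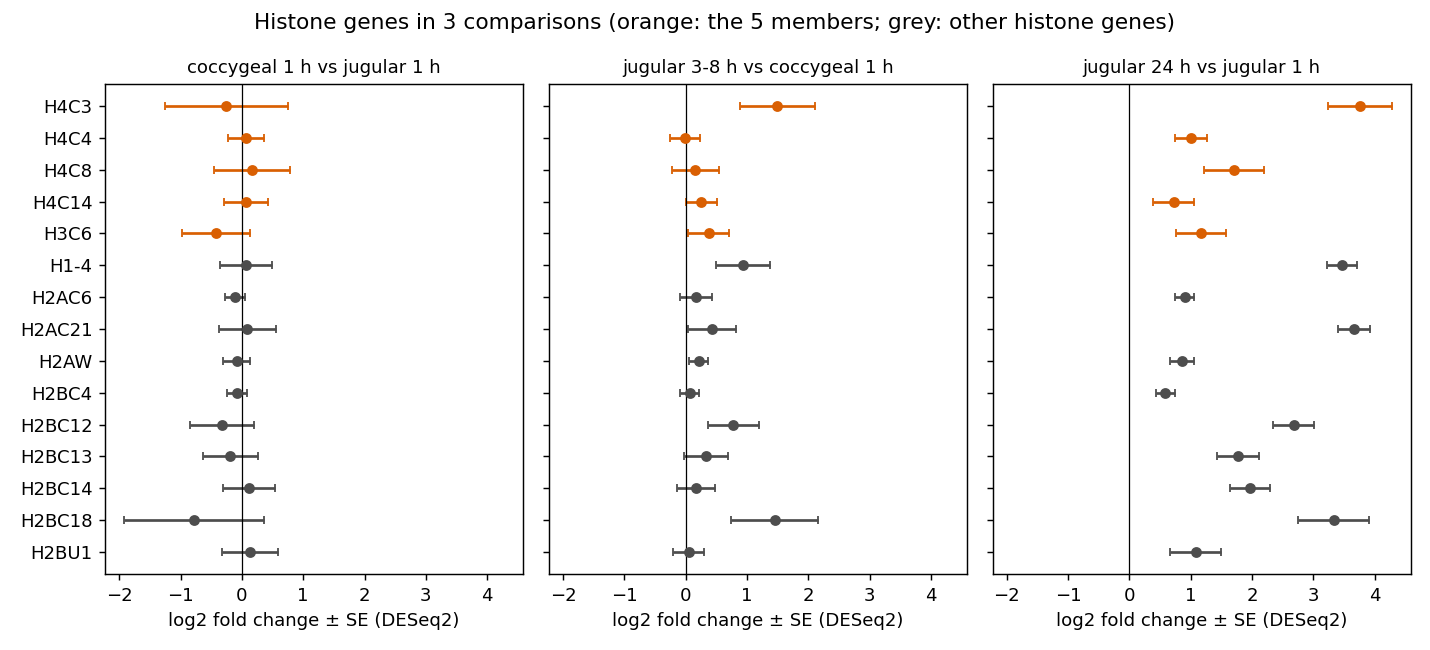
Log2 fold change with its SE from DESeq2 (horizontal) of the 5 members (orange) and 10 other histone genes (grey) in 3 comparisons. The points lie around 0 between the veins (left) and all lie right of 0 at 24 h against 1 h (right), from H2BC4 to H4C3. In the middle panel H4C3 and H2BC18 stand furthest right with wide bars.

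Genes that act on histone mRNA or on H3 and H4 protein had small median differences at 24 h against 1 h. Here and below, counts and shares of genes that rose or fell are of genes called higher or lower, so a gene outside them was not shown to be unchanged. The median log2 fold change was 0.05 over 8 factors of histone mRNA ends and turnover, of which 0 rose and 0 fell. A positive value was found in 6 of the 8, as in 7279 of the 14018 genes tested. Where 1.45% of all genes rose and 1.13% fell, lists this short would hold about 0 called genes at the background share, and nothing is read from these counts. SLBP, which binds the stem-loop, averaged 81.3 CPM after 1 h (SD 9.72) and 83.4 CPM after 24 h (SD 7.20, n = 5), a log2 fold change of 0.04 (DESeq2 interval -0.11 to 0.19, edgeR FDR 0.669). Of 7 genes for the deposition of histones, 0 rose and 0 fell (median -0.03). ASF1A, a chaperone that carries H3 and H4 together, averaged 18.8 CPM after 1 h (SD 1.03) and 18.04 CPM after 24 h (SD 1.44, log2 fold change -0.06, edgeR FDR 0.660).

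Of 9 enzymes that modify H3 or H4, 0 rose and 1 fell (1.13% of all genes fell), with a median of -0.15. SETD7, a lysine methyltransferase first known for its action on H3, fell by 0.59 on the log2 scale, from 7.85 ± 0.348 to 5.27 ± 0.970 CPM (edgeR FDR 0.0139, DESeq2 adjusted p 0.0211). KMT5A, which methylates H4, averaged 34.7 CPM after 1 h (SD 3.39) and 38.1 CPM after 24 h (SD 3.12, log2 fold change 0.14, edgeR FDR 0.240). In the comparisons of 3-8 h with 1 h of either vein, and of the veins, 0 genes of these lists were called, as 0 were over all genes.

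Over 14 genes of DNA replication and cell division the median log2 fold change at 24 h against 1 h was -0.06. Of these 0 rose and 0 fell, and as with the lists above (1.45% of all genes rose and 1.13% fell) nothing is read from the count. MKI67, a marker of cells in cycle, averaged 432 CPM after 1 h (SD 79.5) and 358 CPM after 24 h (SD 86.7, n = 5), a log2 fold change of -0.28 that was not called (edgeR FDR 0.0899, DESeq2 adjusted p 0.0267).

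Markers of blood cells were looked up in the same libraries. Over 16 of them the median log2 fold change at 24 h against 1 h was -0.33. The study itself names 7 of the 16, so that their values are a description with no test: the T cell genes CD28 (-0.66), CD4 (-0.62), CD2 (-0.62), CD8A (-0.60) and CD6 (-0.52), CD14 of monocytes (-0.62), and VWF of platelets and their precursors (0.68). Of the other 9 markers 1 rose and 0 fell, where 1.45% of all genes rose and 1.13% fell. It was LY6G6F, also of platelets and their precursors (0.53, edgeR FDR 0.00732). NFE2, which the list places with these 2, averaged 212 CPM after 1 h (SD 151) and 136 CPM after 24 h (SD 20.9). Its log2 fold change of -0.43 was not called (edgeR FDR 0.420, DESeq2 adjusted p 0.478), and it is named after its value was seen. Whether NFE2 marks platelets in these cells was not tested. The summed level of these 3 genes was 210 to 620 CPM in the jugular libraries of 1 h and 215 to 393 CPM in those of 24 h. Most of the sum at 1 h was NFE2, beside 64.5 CPM of VWF and 30.3 CPM of LY6G6F. The sum therefore does not show the higher means of VWF and LY6G6F at 24 h (105 and 43.4 CPM). CD79A of B cells had a value of 0.18 (edgeR FDR 0.185). The summed level of the 5 T cell markers was 456 to 530 CPM in the jugular libraries of 1 h, 313 to 536 CPM in those of 3-8 h and 213 to 390 CPM in those of 24 h. That of all 16 markers was 1648 to 2307, 1482 to 2726 and 1519 to 1802 CPM, and no marker was at 0 throughout a group. The part of these shifts in the values of the histone genes was not tested. With no replicate block 0 of the listed genes were called lower.

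The 15 libraries of 3-8 h show how the genes vary together. They are not free of the choice, since the study singled out H4C3 within these hours, and H4C3, H4C8 and H2BC18 had a single library of the group above 1 CPM, the same one, which H4C8 and H2BC18 needed to pass the filter. The values that follow are Pearson's r of log2(CPM + 1) over 15 libraries, which share heifers and, for the rarest genes, a few counts, and they are descriptions. H4C3 and H4C8 varied together, with r = 0.88, and of all 14017 other genes each was the one most like the other. Next most like H4C3 were H2BC14, a clustered H2B gene (r = 0.83), and a gene with no symbol (0.82), and next most like H4C8 were H1-4 (0.88) and H2BC18 (0.87), the latter in part fixed by the filter. The median r over all other genes was -0.10 for H4C3 and -0.07 for H4C8.

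H4C4, H4C14 and H3C6 had other neighbours. Most like H4C4 were ENSBTAG00000039555 (r = 0.92), a gene with no symbol (0.92) and the proteasome gene PSMA2 (0.92), but many genes were close to it, since 1% of all genes had an r above 0.83. The 3 genes most like H3C6 (r = 0.89 for ENSBTAG00000055016, then 0.85 and 0.85) and H4C14 (0.82, 0.81 and 0.79) have no symbol in the sources used here. With H4C3, r was 0.05 for H4C4, 0.25 for H3C6 and -0.46 for H4C14. Over the 10 pairs of members the median r was 0.0090, and over the 50 pairs of a member with another histone gene it was 0.20, beside 0.04 over pairs of all genes. H4C14 had a negative r with 9 of the 10 other histone genes. Over all 30 libraries, which include those of the choice, all 10 pairs of members had a positive r, with a median of 0.54.

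**Figure D5:**
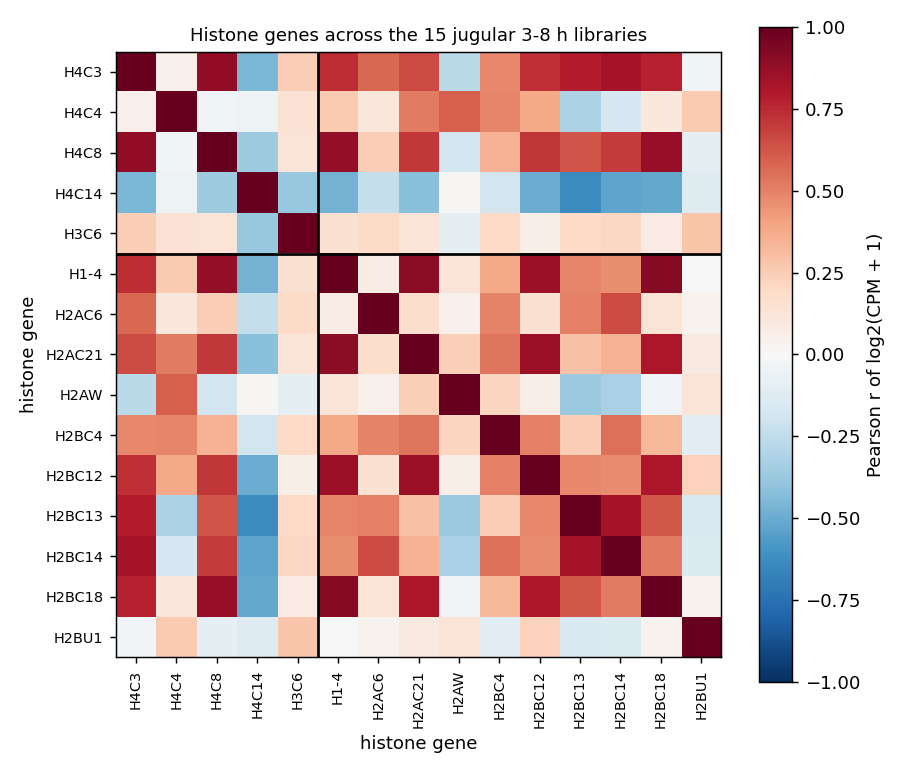
Pearson's r of log2(CPM + 1) between 15 histone genes over the 15 jugular 3-8 h libraries (colour, from -1 in blue to 1 in red), with black lines between the 5 members and the other genes. H4C3 and H4C8 are red with each other (0.88) and with H1-4, H2BC14 and H2BC18, while the row of H4C14 is mostly blue.

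A single library, picked out after its values were seen, stood apart in several of these genes. In the last of the 15 libraries in the order of the table, 7 of the 15 histone genes had their highest value of the group: H4C3 (27 counts, 1.60 CPM), H4C8 (23 counts, 1.36 CPM), H1-4 (7.57 CPM), H2AC21 (3.84 CPM), H2BC12 (3.49 CPM), H2BC18 (1.42 CPM) and H2BC4 (11.7 CPM). H4C14 was at its lowest there, with 17 counts or 1.01 CPM. H4C4 and H3C6 ranked 3 and 5 of 15. The library had 16906679 counts in all, which ranked 9 of 15, and its hour and heifer are not given. Without it, r between H4C3 and H4C8 was 0.81, that between H4C3 and H1-4 was 0.49 in place of 0.74, and that between H4C3 and H4C14 was -0.12 in place of -0.46. Without it the log2 fold change of H4C3 at 3-8 h against coccygeal blood was 1.196 in place of 1.44.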

How the data were processed

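The authors prepared libraries with a stranded kit for polyadenylated RNA, trimmed reads (cutadapt 2.8), aligned them to ARS-UCD1.2 (HISAT2 2.2.0, SAMtools 1.10), removed duplicates and assigned fragments to Ensembl genes regardless of strand (featureCounts of Subread 2.0.1). They deposited raw counts of 27607 genes in 30 libraries, and 0 columns were left out. Vein, time and subject of 15 columns came from the supplementary code, and the other 15 are jugular 3-8 h. Names, positions and lengths came from supplementary tables. RNA integrity was not analysed here.

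edgeR 4.0.16 (quasi-likelihood, library size only, robust) and DESeq2 1.42.0 (Wald) were run in R 4.3.3 on the genes with CPM above 1 in 5 or more libraries. A call needed an FDR below 0.05 from each tool, and edgeR's log2 fold change had to exceed 0.5 in size. Comparisons within subjects had the subject as a block, because same-subject libraries deviated together (r across genes from 0.411 to 0.862), and those with the 3-8 h libraries had none. The steps were run on simulated counts with the same dispersion for all genes and no subject effect. That run therefore does not show how they perform where subjects differ or dispersion varies between genes. Intervals cover counting error only where so named. The members and lists were chosen with earlier results of these data known. The named genes are the members, listed genes called in a comparison, SLBP, ASF1A, KMT5A, MKI67, CD79A and NFE2 (after its value was seen). Also named are the 3 genes most like each member, with at most 2 identifiers lacking a symbol. A further T cell marker, not counted among the listed genes, is not reported here for a reason unrelated to its values. Alternatives varied the scaling, tool, filter, threshold, fit, block, baseline and libraries.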

Additional observations from a re-analysis of the deposited data

Results flagged for a closer look

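Values of each member within the groups of 5, and the differences within subjects between jugular 24 h and 1 h and between the veins, were checked for a sample far from the others (25 sets of 5 values, of which chance would set apart about 1 in 20). A single set stood out. For H4C4, the coccygeal library of subject E was higher than the jugular library of 1 h by 0.74 on the log2 scale (64 against 26 counts), while the other 4 subjects had differences between -0.20 and -0.01.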

How the results depend on the processing

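At 24 h against jugular 1 h, 361 genes were called. There were 30 with no replicate block, 87 in a fit of all 30 libraries with group alone, 1301 with no threshold on the fold change and 156 to 396 with a subject left out (156 without subject A, 237 without subject B). At 24 h against 3-8 h, 28 genes were called, 68 by DESeq2 alone, 57 with no threshold and 15 to 34 with a library of 24 h left out (15 without subject A, 17 without subject D). Of the listed genes that are not members, 17 were called at 24 h against 1 h. Most of these 17 are named by the study, so that their calls are no test. With no replicate block 6 were called, and 8 in the fit of all 30 libraries. There were 11 with coccygeal 1 h as the baseline and 7 to 17 with a subject left out (7 without subject A). The cause of these shifts was not tested. In the comparison of the veins and in those of 3-8 h with 1 h, 0 genes were called by the rule under every alternative run. For 3-8 h against coccygeal 1 h these include 15 fits that each left out 1 library of 3-8 h, an alternative chosen after seeing the data. The median r over pairs of members, 0.0090, was -0.021 with a pseudocount of 0.25 and lay between -0.098 and 0.12 with a library left out.

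The members' log2 fold changes kept their sign in both comparisons of 24 h under all alternatives run: 3.55 to 3.88 for H4C3 and 0.59 to 0.89 for H4C14 against 1 h. H4C4 at 3-8 h against jugular 1 h, 0.08, was -0.024 without subject A and up to 0.17 without another subject. Between the veins, 0 genes were called with and with no replicate block. H4C3, H4C8 and H3C6 could not be fitted under the filter of CPM above 2. Depth limits H4C3 most, at 1 to 5 counts per library of 1 h.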
